A study of Mus musculus with 21 samples.

Results

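The 8 mast cell genes Cma1, Mcpt4, Cpa3, Tpsb2, Tpsab1, Fcer1a, Ms4a2 and Hdc were followed in the skin, liver and brain of newborn mice. They were chosen by name, as the protease, receptor and histamine genes of mast cells, and all 8 were found among the 24391 gene symbols of the count files. The libraries came from 7 C57BL/6 mice at P0, with 1 library per mouse and tissue and 21 libraries in all. The 2 Jak1 KI mice were heterozygous for a knock-in allele, Jak1 H595D/+;I596I/+;Y597Y/+, which changes 1 residue of the pseudokinase domain of the kinase Jak1 and leaves the residues 596 and 597 unchanged in the protein. The 5 WT mice were wild type and carried no edited allele. The KI mice descended from a mosaic founder male, because heterozygous animals died before breeding age, and neither sex nor litter is given in the labels.

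Mast cells are long-lived cells of connective tissue that lie in the dermis, around vessels and at mucosal surfaces. Their granules hold histamine, heparin and a large store of proteases, which are released when IgE bound to the high-affinity receptor FcεRI is cross-linked. Dermal mast cells of the connective tissue type are known for chymases, tryptases and carboxypeptidase A3 together. The related basophils of blood and bone marrow carry the same receptor and make histamine, and their granule proteases differ in part. Cma1 encodes mouse mast cell protease 5 and Mcpt4 encodes the chymase mouse mast cell protease 4. Tpsb2 and Tpsab1 encode the tryptases 6 and 7 of the same series, Cpa3 encodes carboxypeptidase A3, Fcer1a and Ms4a2 encode the alpha and beta chains of FcεRI, and Hdc encodes histidine decarboxylase, which makes histamine.

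The promoters are shown because the genes shared a tissue pattern, and because GATA factors are known regulators of mast cell genes. The promoter sequences of RefSeq, from the GRCm38.p6 assembly, held 6 of the 8 genes, without Tpsb2 and Tpsab1. Both strands were searched for the GATA motif in 4 forms. The forms were AGATAA with A or T as its first letter and A or G as its last. Each of the 6 windows of 300 bases held at least 1 of them. Of all 32851 promoter windows of that length, 29.8% held at least 1 of these forms. In Hdc the single match began 221 bases before the gene start, and in the other 5 genes at least 1 match lay in the last 120 bases before it. Those 120 bases are printed 5′ to 3′ on the strand of the gene, with the matches in capitals, from chr3:20242182-20242301 for Cpa3, chr14:55944676-55944795 for Cma1, chr14:56062311-56062430 for Mcpt4, chr19:11623720-11623839 for Ms4a2 and chr1:173227230-173227349 for Fcer1a, all on the minus strand.
Cpa3: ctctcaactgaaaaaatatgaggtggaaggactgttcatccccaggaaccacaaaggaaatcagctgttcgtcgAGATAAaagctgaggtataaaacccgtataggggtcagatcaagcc
Cma1: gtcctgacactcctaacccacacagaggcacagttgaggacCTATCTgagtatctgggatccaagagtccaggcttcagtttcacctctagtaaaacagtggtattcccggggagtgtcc
Mcpt4: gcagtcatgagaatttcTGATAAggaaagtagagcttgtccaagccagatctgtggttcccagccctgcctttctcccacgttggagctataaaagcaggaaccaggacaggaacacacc
Ms4a2: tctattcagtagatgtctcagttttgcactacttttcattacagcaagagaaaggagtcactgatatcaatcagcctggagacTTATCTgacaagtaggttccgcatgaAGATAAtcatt
Fcer1a: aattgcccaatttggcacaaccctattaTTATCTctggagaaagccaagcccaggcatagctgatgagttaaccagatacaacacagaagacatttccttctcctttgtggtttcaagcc
The match of Cpa3 began 46 bases before the gene start, that of Cma1 79 and that of Mcpt4 103 bases before it. Ms4a2 held matches at 37 and 11 bases before the start and a further one at 224 bases. These are matches of letters, and binding was not measured.

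The tryptase pair is shown for a splice site, since C57BL/6 mice are known to lack tryptase 7 protein through a change at the start of the second intron of Tpsab1. In the NCBIM37 (mm9) genome, Tpsab1 (chr17:25480190-25482507, minus strand) and Tpsb2 (chr17:25503486-25505804, plus strand) lie on 1 chromosome. The last 10 bases of the second exon and the first 10 bases of the second intron are printed on the strand of each gene, with the first pair of intron bases in capitals, from chr17:25481985-25482004 for Tpsab1-001 and chr17:25503861-25503880 for Tpsb2-201.
Tpsab1: gtgtgggaccATgagtctac
Tpsb2: gtgtgggaccGTgagtctcc
The other 3 introns of Tpsab1-001 and all 4 introns of Tpsb2-201 began with GT and ended with AG in this genome, and the second intron of Tpsab1-001 ended with AG as well. The longest coding transcripts of both genes were 77.0% identical over 1001 aligned bases. No window of 75 bases in the longest coding transcript of Tpsb2 or Tpsab1 was found in a coding transcript of another gene. Of the 8 genes, only Mcpt4 shared such windows, 26 of 916, with the chymase gene Cma2. No annotated gene overlapped any of the 8.

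Between 26549326 and 38388133 reads per library were counted on genes. The skin libraries differed greatly in epidermal transcripts. Krt1, a keratin of the upper epidermis, ranged from 161 to 5117 CPM (read counts scaled to a common library total) in the 5 WT skins, and stood at 4382 CPM in KI 1 and 90.8 CPM in KI 2. The spread was thus as wide within each genotype as between them. Jak1 itself was at 182 and 185 CPM in the KI skins and at 149 to 173 CPM in the WT skins (edgeR, adjusted p = 0.999). Since whole tissue was sequenced, fewer mast cells and less RNA per mast cell cannot be told apart.

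The granule protease genes Cpa3, Cma1, Tpsb2 and Mcpt4 were among the most abundant transcripts of WT skin. Cpa3 was read at 833 CPM in the lowest of the 5 WT skins, 1162 CPM in the median and 1436 CPM in the highest. Cma1 lay between 458 and 773 CPM, with 589 CPM at the median. Tpsb2 ranged from 403 to 677 CPM with a median of 512 CPM. Mcpt4 varied least of these proteases, from 249.8 to 357 CPM around a median of 269 CPM. Together the 8 genes took 2235 to 3699 CPM of the WT skin libraries.

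Hdc lay between 198 and 485 CPM in WT skin, with a median of 354 CPM. The receptor genes were read at far lower levels. Ms4a2 stood at 10.48, 10.55, 6.14, 9.98 and 10.3 CPM in WT 1 to WT 5, so that 4 skins agreed closely and WT 3 was low. Fcer1a was the most variable gene of the 8, at 1.94, 6.92, 0.855, 0.954 and 2.80 CPM in the same order, with a coefficient of variation of 92.5% against 14.7% to 30.8% for the other 7 genes. The tryptase gene with the altered splice site, Tpsab1, was read at 8.39, 9.34, 7.59, 10.9 and 10.3 CPM, and every WT skin held far less of it than of Tpsb2.

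Levels of different genes were compared as CPM per kb of annotated exon, shown in the plot of level per exon length. In WT skin Cpa3 had 773 ± 153 CPM per kb (SD, n = 5) and stood at rank 21 of the 20824 genes with a length. Cma1 followed with 549 ± 109 CPM per kb at rank 39, and Tpsb2 with 475 ± 97.5 CPM per kb at rank 47. Mcpt4 had 286 ± 44.3 CPM per kb at rank 96, and Hdc 56.0 ± 17.3 CPM per kb at rank 760. Tpsab1, Ms4a2 and Fcer1a had 4.45 ± 0.653, 3.45 ± 0.686 and 2.63 ± 2.43 CPM per kb.

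The order held in part beyond the spread between mice. Cpa3 exceeded Cma1, and Cma1 exceeded Tpsb2, in each of the 5 WT skins, although the ranges over mice overlapped. Mcpt4 lay above Hdc and Hdc above Tpsab1 with no overlap between the ranges. Tpsb2 lay above Mcpt4 with ranges that nearly met, at 360.67 CPM per kb for the lowest Tpsb2 and 360.35 for the highest Mcpt4. Tpsab1 and Ms4a2 overlapped, as did Ms4a2 and Fcer1a, where 4 of the 5 skins had the order of the means. The level of Tpsb2 per kb was 107-fold that of Tpsab1. For Hdc the value depended on the length used, since the annotated exons span 6389 bases and the longest coding transcript 2392 bases, which gave 150 CPM per kb and kept Hdc between Mcpt4 and Tpsab1. By the same coding length Tpsab1 had 7.82 CPM per kb and Ms4a2 3.97, and Tpsb2 was 62.7-fold above Tpsab1.

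**Figure D1:**
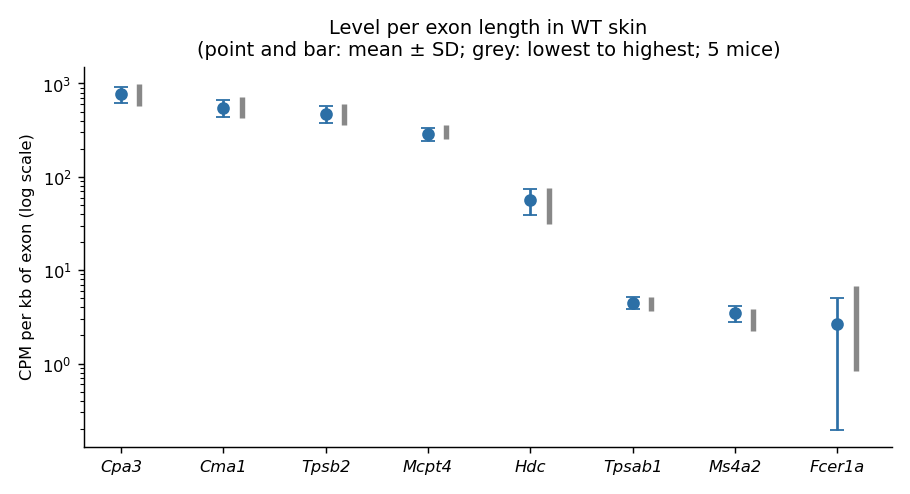
Level of each mast cell gene in WT skin as CPM per kb of annotated exon, on a log axis, with genes ordered from high to low. Points and blue bars are the mean ± SD of 5 mice and grey bars run from the lowest to the highest mouse, from 773 CPM per kb for Cpa3 to 2.63 CPM per kb for Fcer1a.

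All 8 genes were higher in WT skin than in WT brain and WT liver, as the panels by tissue show. In the edgeR fit over 3 WT tissues, 40.3% of the 17071 genes tested were called higher in skin than in brain, and 39.8% higher in skin than in liver, so a call alone is common here. The sizes differed between the genes. The median log2 difference over all genes tested was 0.02 against brain and 0.10 against liver. The methods of the study give lower RNA integrity for the skin samples than for the liver samples, and name blood rather than brain beside liver. RNA quality and tissue therefore cannot be told apart in the contrast of skin with liver.

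The 5 protease genes had wider gaps to liver than Hdc and the receptor genes. Mcpt4 was higher in skin than in liver by 10.62 ± 0.53 (log2, SE) and Cma1 by 9.57 ± 0.57, with edgeR adjusted p = 9.0e-11 and 5.6e-10. Tpsb2 differed by 9.40 ± 0.46 and Cpa3 by 8.55 ± 0.29, with edgeR adjusted p = 6.4e-11 and 1.1e-12. Over the 5 WT livers, Mcpt4 was counted 21 times in all, and Cma1 and Tpsb2 93 times each. Tpsab1 was counted 4 times in those livers, and its log2 difference was 7.96 ± 0.51 (edgeR adjusted p = 3.6e-08).

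Hdc and the receptor genes had smaller gaps between skin and liver. Hdc differed by 3.62 ± 0.33 on the log2 scale and Ms4a2 by 2.42 ± 0.32, with edgeR adjusted p = 6.8e-08 and 6.0e-06. Fcer1a differed by 4.95 ± 0.97 (edgeR adjusted p = 0.000691), with 10 counts in the 5 WT livers. Even so, the lowest WT skin exceeded the highest WT liver for Ms4a2 (6.14 against 2.19 CPM), Hdc (198 against 34.4 CPM) and Fcer1a (0.855 against 0.267 CPM). How many of all genes tested had such a gap was not counted, and 39.8% of them were called higher in skin.

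Liver thus held a different mixture of the 8 genes. As a share of their summed CPM per kb, Hdc made up 1.80% to 3.69% in the WT skins and 44.9% to 58.3% in the WT livers. Cma1 made up 24.6% to 27.1% in the WT skins and 1.43% to 13.0% in the WT livers. Ms4a2 took at most 0.191% in the WT skins and at least 5.78% in the WT livers. Cpa3 differed less, with 33.3% to 38.9% in the WT skins and 18.1% to 32.3% in the WT livers. The shares depend on the lengths used, which for Hdc was 6389 bases of annotated exon. The basophil protease gene Mcpt8 was read at 2.49 to 4.16 CPM in WT liver and 0.0777 to 1.23 CPM in WT skin, and was called lower in skin by 2.36 ± 0.50 on the log2 scale (edgeR adjusted p = 0.000606). The other basophil markers followed, Prss34 and Cd200r3, did not share this direction. Prss34 overlapped, at 4.10 to 6.15 CPM in WT liver and 1.86 to 7.39 CPM in WT skin. Cd200r3, found on both basophils and mast cells, was at 0.267 to 0.919 CPM in WT liver and 6.86 to 11.1 CPM in WT skin. Of the 3 basophil markers, 1 was called higher and 1 lower in WT skin than in WT liver. What part basophils had in the liver values was not tested.

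In brain every gene of the 8 stayed low. Hdc reached 1.43 to 5.29 CPM in the WT brains and was 6.73 ± 0.38 higher in skin (log2, SE, edgeR adjusted p = 2.3e-10). Cpa3 reached at most 0.695 CPM in a WT brain, and Cma1 and Tpsb2 at most 0.349 CPM. Neither Tpsab1 nor Fcer1a had a count in the 5 WT brains. The limit that a count of 0 allows was taken as 3 counts over the 5 libraries, or 0.0193 CPM on raw library totals. The mean of WT skin, on the scaled totals used elsewhere, was at least 482-fold above it for Tpsab1. For Fcer1a the mean was at least 139-fold above it. Such limits cover counting error only.

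**Figure D2:**
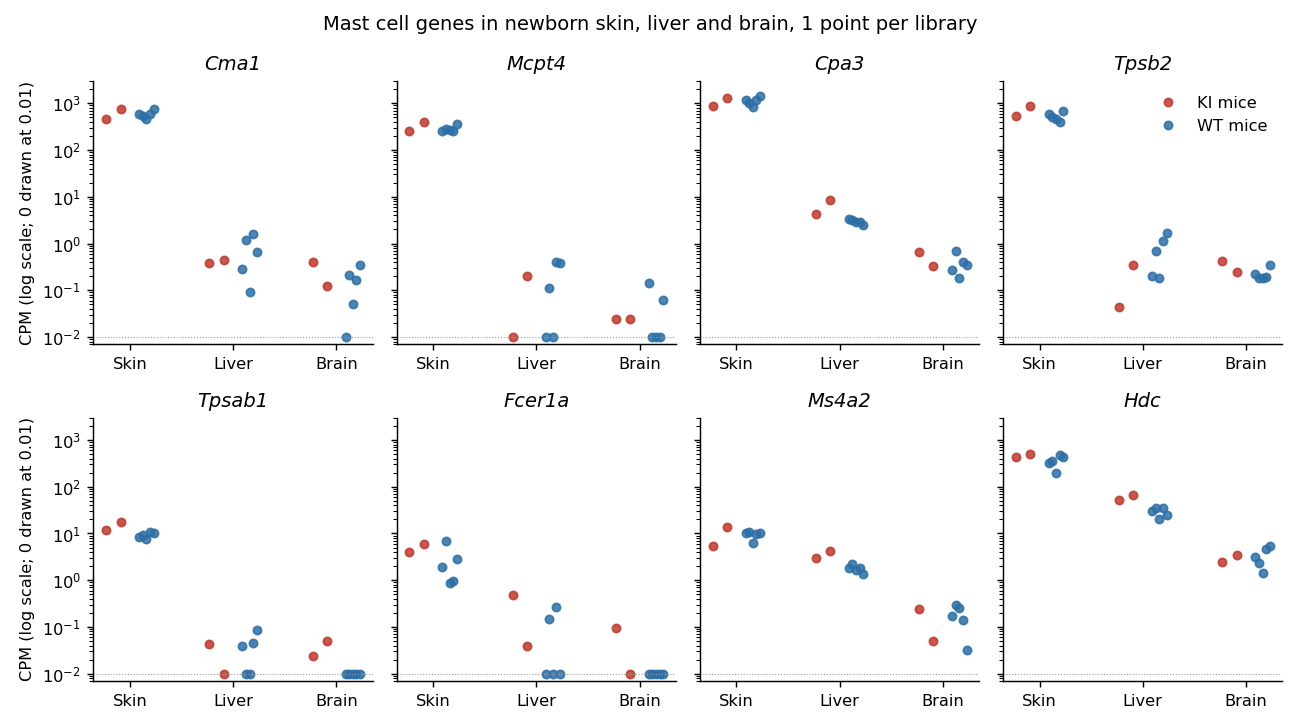
CPM of the 8 mast cell genes in skin, liver and brain on a log axis, 1 point per library, red for 2 KI mice and blue for 5 WT mice, with counts of 0 drawn at 0.01. Cpa3 in WT skin lay between 833 and 1436 CPM, and Tpsab1 and Fcer1a had no count in any WT brain.

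Genes that share a cell or a pathway with the 8 were followed in fixed lists. Of all 17071 genes tested, 6882 were called higher and 6672 lower in WT skin than in WT brain. Against WT liver, 6791 were called higher and 5555 lower. Of 15 genes of mast cell identity and growth, 12 were called higher and 1 lower in WT skin than in WT brain, and 11 higher and 3 lower than in WT liver. The largest differences belonged to Mrgprb1 and Mrgprb2, receptors for basic secretagogues on connective tissue mast cells, at 10.27 ± 0.44 and 7.65 ± 0.59 (log2, SE) against liver. Kit, the receptor for stem cell factor, was at 60.6 to 82.3 CPM in WT skin, and did not pass against brain (log2 difference 0.08, edgeR adjusted p = 0.654). Gata1 and Tal1 of the same list were lower in skin than in liver, by -5.45 and -4.61 on the log2 scale, and Gata2 was higher by 2.52 ± 0.23.

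Of 12 other granule protease genes, 10 could be tested. All 10 were called higher in skin than in brain, and 3 were higher and 6 lower in skin than in liver. The chymase gene Cma2 was higher in skin than in liver by 8.33 ± 0.73 (log2, SE), the tryptase gene Tpsg1 by 6.81 ± 0.69 and Mcpt1 by 4.23 ± 0.58. Granzyme B (Gzmb) was lower by -6.23 ± 0.57. Cma2 reached 2.98 to 4.68 CPM in WT skin, well under Mcpt4, with which it shares some sequence.

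The remaining lists split in both directions against liver. In IgE receptor signalling, 11 of 14 genes were higher and 2 lower in skin than in brain, and 3 were higher and 10 lower than in liver. Fcer1g, the gamma chain that FcεRI shares with other Fc receptors, was at 49.2 to 72.2 CPM in WT skin and 72.0 to 87.1 CPM in WT liver. Of 9 genes of granule matrix and monoamine storage, 6 were higher and 2 lower in skin than in liver, among them Slc18a2, the vesicular monoamine transporter, higher by 1.44 ± 0.18 (log2, SE). Of 8 eicosanoid enzymes, 2 were higher and 5 lower than in liver, and leukotriene C4 synthase (Ltc4s) was higher by 4.55 ± 0.66. Of the 5 histamine receptor and breakdown genes tested, 2 were higher and 1 lower than in liver, and of the 7 cytokines tested, 5 were higher and 1 lower. Against brain, by contrast, all 8 eicosanoid enzymes and 6 of the 7 cytokines were higher in skin with none lower, and 3 of the 5 histamine genes were lower with none higher.

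The 8 genes were not at the same height in all skins. When each gene was scaled over the 7 skins, the mean of the 8 was highest in KI 2 (1.32 SD above the mean of the skins) and WT 5 (0.66), which had the least Krt1. The mean was lowest in WT 3 (-1.16), and KI 1, WT 4, WT 1 and WT 2 lay at -0.42, -0.20, -0.18 and -0.03. Over the 7 skins, the Pearson r of each gene with the mean of the other 7 ran from 0.51 for Fcer1a to 0.85 for Cma1. Krt1 had r = -0.77 with the mean of the 8. The part of tissue composition in these differences was not tested.

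The genes most like the mean of the 8 over the 7 skins were Rhbdf1, Rhbdd3, Cyba, Rab4b, Rasal3, Tnfsf18, Fcer1g, Trim11, Evi2a and Gp1ba, with Pearson r from 0.96 to 0.99 and Spearman rho from 0.89 to 1.00. With 7 libraries and 16155 genes compared, such values are a description. Fcer1g was the only gene of these 10 that belonged to a fixed list, with r = 0.97. Mrgprb1 ranked 302 with r = 0.79 and Kit 6392 with r = 0.12.

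**Figure D3:**
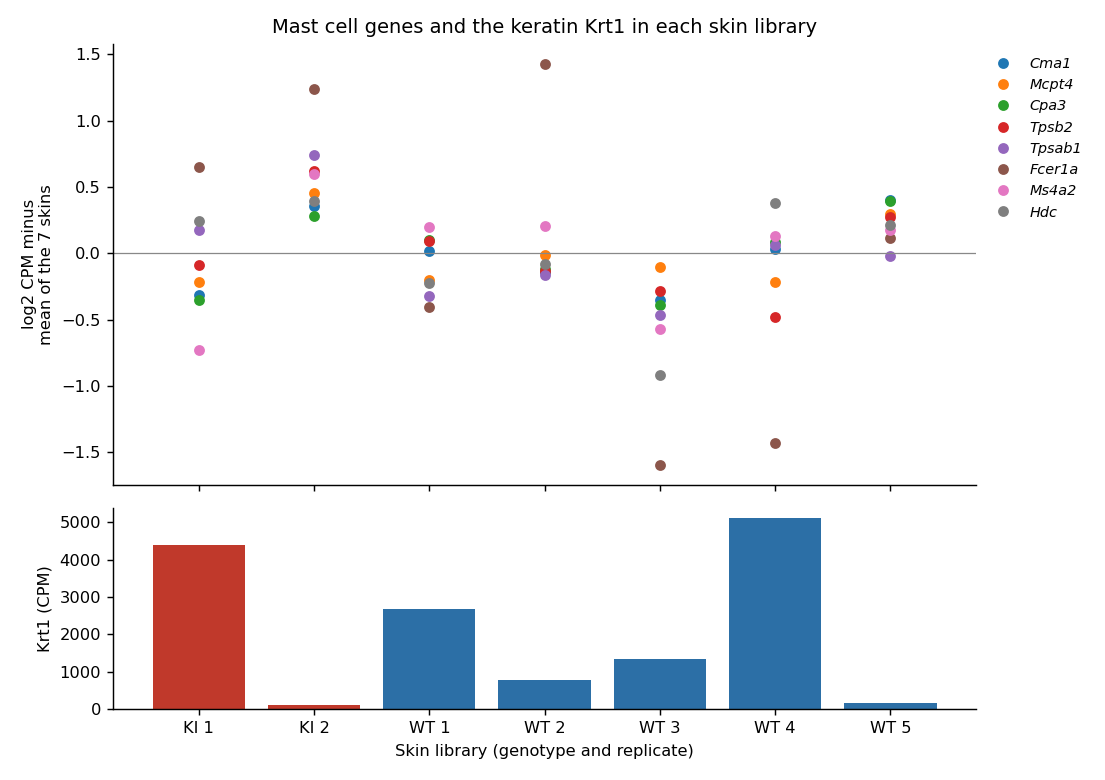
Upper panel: log2 CPM of each mast cell gene minus its mean over the 7 skins, per library. Lower panel: CPM of Krt1 in the same libraries, red for KI and blue for WT. All 8 genes lay above their mean in KI 2, where Krt1 was at 90.8 CPM, and below it in WT 3.

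KI and WT skin were compared to ask whether the Jak1 allele goes with altered mast cell transcripts at birth. None of the 8 genes was called. In the edgeR fit of the 7 skins, 0.0247% of the 16163 genes tested were called in either direction, 4 genes, and 738 genes had an unadjusted p under 0.05. DESeq2 called 107 genes, none of them among the 8. All 8 genes passed the filter on low counts.

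The KI values of Cpa3, Cma1 and Mcpt4 overlapped those of the WT skins. Cpa3 was at 857 CPM in KI 1 and 1328 CPM in KI 2, inside the WT range of 833 to 1436 CPM. Its log2 fold change was -0.06, with a 95% interval from -0.63 to 0.51 (edgeR adjusted p = 0.999). Cma1 stood at 469 and 747 CPM in the KI skins, also inside the WT range, with a log2 fold change of 0.02 and an interval from -0.53 to 0.58. Both intervals lie within a 2-fold change in either direction. Mcpt4 was at 250.02 and 397 CPM in the KI skins against 249.8 to 357 CPM, with a log2 fold change of 0.17 and an interval from -0.31 to 0.65.

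Tpsb2 was at 527 CPM in KI 1 and 864 CPM in KI 2, the highest of the 7 skins, with a log2 fold change of 0.37 and an interval from -0.21 to 0.95. Hdc stood at 442 and 491 CPM in the KI skins, against 198 to 485 CPM in the WT skins, with 0.36 and an interval from -0.33 to 1.05. Among the receptor genes, Ms4a2 was lowest in KI 1 (5.52 CPM) and highest in KI 2 (13.8 CPM) of all skins, and its log2 fold change was -0.00075 with an interval from -0.84 to 0.83. Fcer1a stood at 4.04 and 6.09 CPM in the KI skins, between the 2 highest WT values, with 0.88 and an interval from -0.89 to 2.65. These 4 genes had edgeR adjusted p-values of 0.999 to 1.00.

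Only Tpsab1 separated the groups. It was read at 11.8 CPM in KI 1 and 17.5 CPM in KI 2, and at 7.59 to 10.9 CPM in the WT skins. The log2 fold change was 0.63 ± 0.21 (SE), with an edgeR adjusted p = 0.951. The exact permutation test over the 21 ways of choosing 2 of 7 mice gave p = 0.0476 (two-sided), the smallest it can give. Both KI skins lay above all WT skins in 5.45% of the genes tested, and 1 of the 8 mast cell genes did so. Without KI 2, which leaves 1 KI skin, the log2 fold change was 0.33.

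The KI skins differed from each other in the amount of keratin. Without KI 2 and WT 5, the skins lowest in Krt1, 1 KI skin is left against 4 WT skins, so the spread comes from the WT skins alone. There the log2 fold change was -0.40 for Cpa3, -0.23 for Cma1 and 0.37 for Tpsab1, and none of the 8 was called. With the keratin level as a covariate none of the 8 was called either.

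Of the fixed lists, no gene of the pathway or marker lists was called in skin. Csf2rb, the beta chain shared by the receptors for IL-3, IL-5 and GM-CSF, was at 74.6 and 88.4 CPM in the KI skins and 32.4 to 46.0 CPM in the WT skins, with a log2 fold change of 0.97 ± 0.15 (SE) and an edgeR adjusted p = 0.310. Kit was at 72.8 and 78.7 CPM in the KI skins, inside the WT range of 60.6 to 82.3 CPM. Mrgprb1 was at 39.3 and 55.4 CPM against 29.3 to 39.7 CPM, and Mrgprb2 at 13.0 and 23.0 CPM against 12.9 to 22.6 CPM. The median log2 fold change over the list of identity and growth genes was 0.12, beside -0.03 over all genes tested. The 14 IgE receptor signalling genes all lay above 0 (median log2 fold change 0.37), and none was called. Likewise none of the 7 macrophage markers, all above 0 as well (median 0.65), was called, while their sum was 764 and 1037 CPM in the KI skins and 491 to 693 CPM in the WT skins. The part of macrophages in the skin values was not tested. The summed basophil markers Mcpt8, Prss34 and Cd200r3 were at 13.8 and 20.2 CPM in the KI skins and 10.7 to 19.0 CPM in the WT skins.

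**Figure D4:**
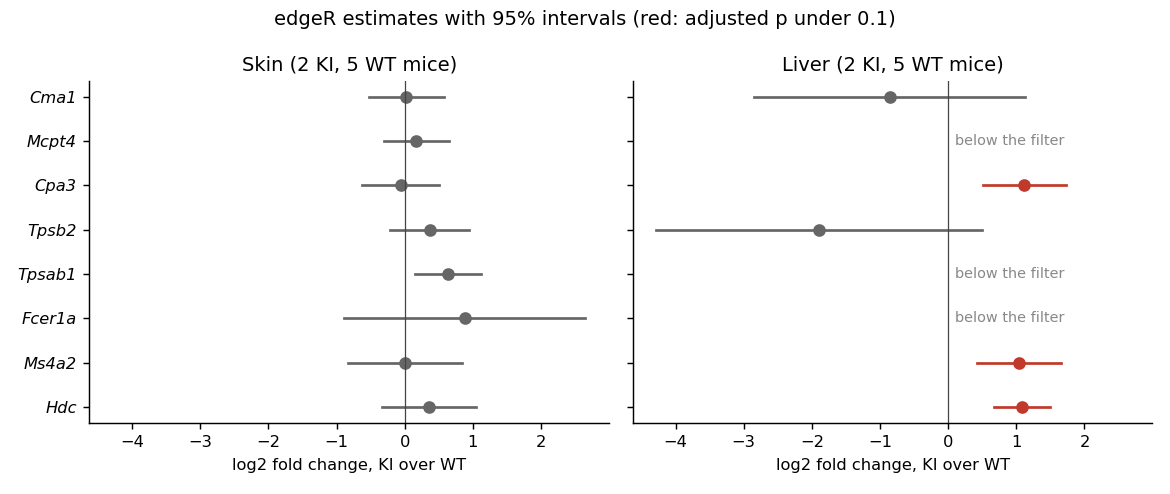
edgeR log2 fold changes of KI over WT with 95% intervals, skin on the left and liver on the right, red where the adjusted p was under 0.1. In skin the estimates ran from -0.06 for Cpa3 to 0.88 for Fcer1a and none was called, while in liver Hdc, Cpa3 and Ms4a2 lay near 1.

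In liver, Hdc, Cpa3 and Ms4a2 rose in the KI mice, each by about 1 on the log2 scale, whereas the chymase and tryptase genes stayed near the limit of detection. The edgeR fit called 582 of 14966 genes higher, 3.89% of those tested, and 3 of the 5 mast cell genes tested. Mcpt4, Tpsab1 and Fcer1a did not pass the filter on low counts in liver. The 3 called genes were those with the most counts in liver, and in each of them the lower KI liver exceeded the highest WT liver, as in 12.0% of all genes tested.

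Hdc was at 53.1 and 67.7 CPM in the KI livers and at 30.5, 34.3, 20.7, 34.4 and 25.0 CPM in the WT livers. The groups did not overlap, and the log2 fold change was 1.08 ± 0.18 (SE, edgeR adjusted p = 0.0194). Cpa3 was at 4.33 CPM in KI 1 and 8.41 CPM in KI 2, against 2.53 to 3.36 CPM in the WT livers, with a log2 fold change of 1.12 ± 0.27 (edgeR adjusted p = 0.0677). Ms4a2 stood at 3.00 and 4.19 CPM in the KI livers against 1.39 to 2.19 CPM, with 1.04 ± 0.28 (edgeR adjusted p = 0.0900). For each of the 3 the exact permutation test gave p = 0.0476 (two-sided), the smallest it can give.

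The calls changed with the mice and settings used. Leaving out a KI mouse leaves 1 KI liver, which is assumed to vary like the WT livers. Without KI 2 none of the 3 was called, with log2 fold changes of 0.90 for Hdc, 0.57 for Cpa3 and 0.79 for Ms4a2. Hdc kept its call without any other single mouse, whereas Cpa3 lost it without WT 1, WT 2, WT 3 or WT 5, at edgeR adjusted p-values of 0.101 to 0.118, and Ms4a2 lost it without KI 1 or any of those 4 WT mice. With Y-linked expression as a covariate only Hdc was called. A single fit of all 21 libraries called none of them (edgeR adjusted p = 0.223 for Hdc).

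The genes that set dermal mast cells apart were barely read in liver and were not called. Cma1 had 9 and 11 counts in the KI livers and 2 to 35 in the WT livers, with a log2 fold change of -0.86 and an interval from -2.85 to 1.13. Tpsb2 had 1 and 9 counts in the KI livers and 4 to 40 in the WT livers, with -1.89 and an interval from -4.28 to 0.50. Mrgprb2 had no count in either KI liver and Mrgprb1 had 1. Kit was at 50.8 and 52.9 CPM in the KI livers, inside the WT range of 48.5 to 66.1 CPM.

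Basophil markers moved with Hdc, Cpa3 and Ms4a2. Mcpt8 was at 11.2 and 12.4 CPM in the KI livers and 2.49 to 4.16 CPM in the WT livers, a log2 fold change of 1.85 ± 0.21 (SE, edgeR adjusted p = 0.00454). Prss34, mast cell protease 11 of basophils, was at 13.4 and 17.7 CPM against 4.10 to 6.15 CPM, with 1.67 ± 0.20 (edgeR adjusted p = 0.00485). Cd200r3, found on both cell types, was at 1.502 and 1.82 CPM against 0.267 to 0.919 CPM and missed the threshold, with 1.73 ± 0.50 (edgeR adjusted p = 0.110). Summed over the 3 basophil markers, 2 of 3 called, the KI livers held 26.0 and 32.0 CPM and the WT livers 7.32 to 11.2 CPM. The part of basophils in the liver values was not tested.

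Macrophage markers were also higher in the KI livers. Of 7 macrophage markers 5 were called higher, with summed levels of 1501 and 1749 CPM in the KI livers and 963 to 1275 CPM in the WT livers. Of 7 neutrophil markers 2 were called higher, with summed levels of 8654 and 10257 CPM against 5601 to 7202 CPM. Of 4 markers each of eosinophils and megakaryocytes 1 was called, with overlapping sums in both lists, and none of the 3 T cell markers tested was called. The summed hepatocyte markers were lower in the KI livers, at 178890 and 181410 CPM against 184050 to 228370 CPM in the WT livers. The summed erythroid markers were also lower, at 1256 and 1410 CPM against 1430 to 1935 CPM. None of the 4 hepatocyte and 3 erythroid markers tested was called. The part of all these cells in the results was not tested either.

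**Figure D5:**
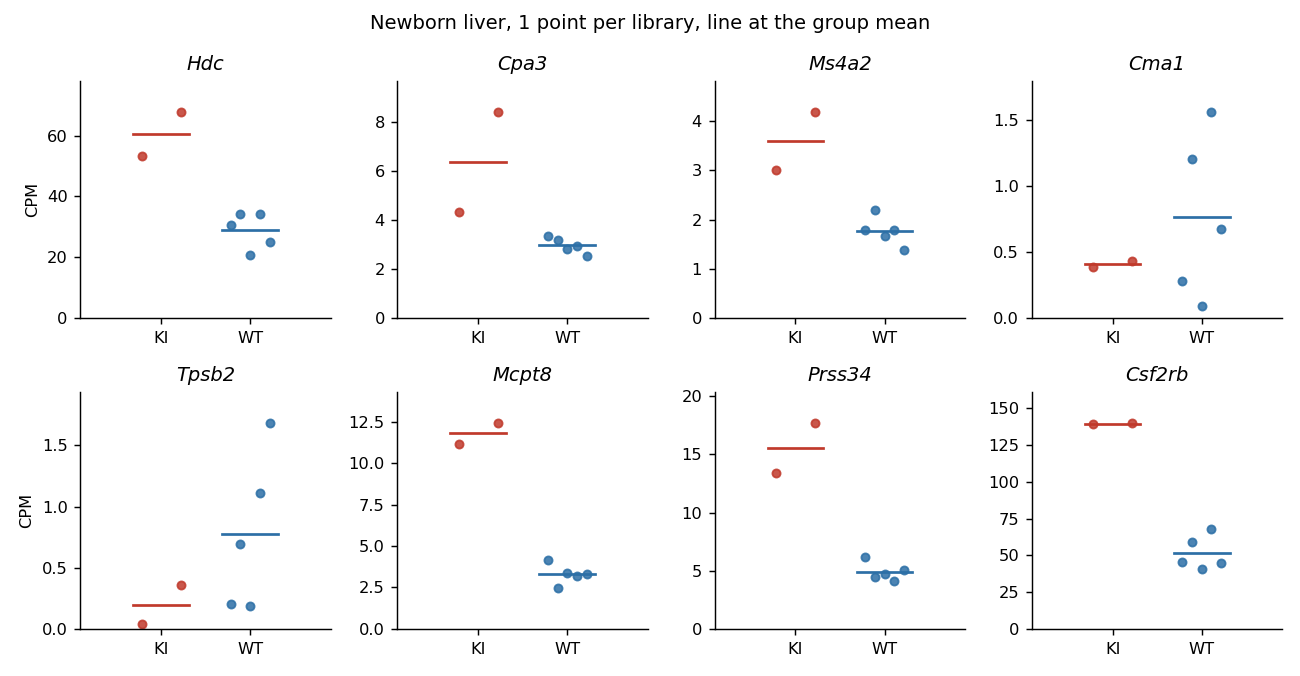
CPM in newborn liver per library, red for 2 KI and blue for 5 WT mice, with a line at each group mean and every axis starting at 0. Hdc, Cpa3, Ms4a2, the basophil proteases Mcpt8 and Prss34, and Csf2rb lay higher in both KI livers than in any WT liver, while Cma1 and Tpsb2 overlapped.

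Among the pathway lists in liver, 4 of the 7 other granule protease genes tested were called higher, with none lower. Mcpt8 and Prss34, which are also the basophil markers, led this list, and Ctsc, the cathepsin that activates granule proteases, followed with a log2 fold change of 0.99 ± 0.13 (SE, edgeR adjusted p = 0.00814). Ctsg, known from neutrophils and monocytes, was the fourth with 0.49. Of 14 genes of IgE receptor signalling, 4 were called higher and none lower, namely Fcer1g (0.64), the kinases Syk (0.58) and Lyn (0.49) and the exchange factor Vav1 (0.55), all on the log2 scale. These 4 serve many leukocytes besides mast cells.

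Csf2rb was the only one of 12 identity and growth genes tested that was called in liver. It was at 139 and 140 CPM in the KI livers and 40.8 to 68.1 CPM in the WT livers, with a log2 fold change of 1.45 ± 0.17 (SE, edgeR adjusted p = 0.00457). The proteoglycan serglycin (Srgn), on which granule proteases are packed, rose by 0.83 ± 0.09 and the granule membrane protein Cd63 by 0.57 ± 0.12, 2 of 8 genes of granule matrix and storage. Of 8 eicosanoid enzymes, Alox5ap (0.73) and Pla2g4a (0.53) were called higher. None of the 4 histamine receptor and breakdown genes tested was called. Il6 was the only cytokine of 6 called, at 1.34 and 2.88 CPM in the KI livers against 0.0446 to 0.519 CPM in the WT livers.

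In brain 5 of the 8 genes passed the filter and none was called. The edgeR fit called 0.0% of the 16322 genes tested in brain, with 1732 genes at an unadjusted p under 0.05, while DESeq2 called 604 genes and none of the 8. Hdc was at 2.43 and 3.45 CPM in the KI brains, inside the WT range of 1.43 to 5.29 CPM. Cpa3 was at 0.649 and 0.323 CPM against 0.179 to 0.695 CPM. Fcer1a had 4 counts in KI 1 and none in the other brains, and Tpsab1 had 1 and 2 counts in the KI brains.

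The KI effect itself was compared between tissues in a fit of all 21 libraries. For skin minus liver, 0.0997% of the 18062 genes tested were called and none of the 8. Hdc differed by -0.68 with an interval from -1.76 to 0.39, and Ms4a2 by -0.999 with an interval from -2.36 to 0.36. Cpa3 differed by -1.14 and Tpsb2 by 2.29, both with an edgeR adjusted p = 0.740. For skin minus brain, 0.0% of the genes were called, with 1339 at an unadjusted edgeR p under 0.05 and 56 called by DESeq2, none of them among the 8. A call in liver and none in skin is therefore not shown to be a difference between the tissues.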

How the data were processed

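RNA from the skin, liver and brain of 2 Jak1 KI and 5 WT newborns was sequenced as paired ends. Per the labels and the methods of the study, the authors trimmed the reads, aligned them to mm9 with TopHat2 and deposited raw counts per gene symbol in the layout of HTSeq, versions not given in the sources used here. The lines for reads not assigned to a gene, 30.4% to 38.1% of the reads, were left out of totals and tests, and 80.5% to 87.6% of uniquely aligned reads were on genes. A gene absent from a library may lie under its depth, and intervals for counts cover counting error only.

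Genes with low counts were removed by filterByExpr, library sizes were scaled by TMM, and the tests were quasi-likelihood tests (edgeR 4.0.16, R 4.3.3) with Benjamini-Hochberg adjustment over all genes tested. Genes with an adjusted p under 0.1 were called. KI and WT were compared within each tissue, WT tissues in a fit of 15 libraries, and KI effects between tissues in a fit of 21. CPM values use TMM factors over all 21 libraries. Exact permutation tests used log2(CPM + 0.1). Exon lengths came from GENCODE M1 on NCBIM37 and matched 20824 of 24391 symbols. The steps were tested on simulated counts. Figures used Python 3.11.15 with matplotlib 3.10.9.

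The mice carry numbers in the labels, and libraries of 1 number, tissue apart, were taken as 1 mouse from tags shared by the deposited names. After group means were removed, WT skin correlated with liver of the same number at r = 0.0622 to 0.241 and with brain at r = 0.00123 to 0.242. No fact shows whether the 7 mice shared litters, so p-values measure the spread between these mice. By their Y-linked transcripts, KI 2 and WT 3 were males.

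The 8 genes, the pathway lists and the marker lists were chosen with earlier results of these data known. Genes named from a pathway list were the called ones, at most 4 per list and comparison by size of change, and the 3 highest in WT skin; genes most like the 8 were the 10 with the highest Pearson r over the 7 skins. Mrgprb1, Mrgprb2, Kit, Gata2, Slc18a2, Csf2rb and Fcer1g were also followed in comparisons where the rule did not name them. Alternatives were the size factors and Wald test of DESeq2 1.42.0, no filter, an adjusted p of 0.05, all 21 libraries in a fit, a block for the number, a Y-linked covariate, other lengths and totals, and each mouse left out. The keratin covariate, the 5 skins with more Krt1 and the coding length were added after seeing the data.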

Additional observations from a re-analysis of the deposited data

Results flagged for a closer look

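Values of the 8 genes were screened in the 5 WT mice of each of 3 tissues, 24 groups of values, for a mouse whose gap to the next was large against the range of the group by Dixon's criterion at 95%. Chance flags about 1 in 20 groups. Ms4a2 in the skin of WT 3 stood at 6.14 CPM, below the 9.98 to 10.55 CPM of the other WT skins. WT 3 also had the lowest mean of the 8 genes in skin. Tpsb2 in the brain of WT 5 stood at 0.349 CPM, above 0.179 to 0.219 CPM in the other WT brains, where it rests on 11 counts. No test of the KI effect between tissues passed for any of the 8 genes.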

How the results depend on the processing

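The 8 calls of WT skin over brain and over liver held under all alternatives run, the block for the mouse included. In the KI comparisons the counts over all genes moved more. Skin calls went from 4 to 0 at an adjusted p of 0.05, 0 with the block, 0 in the 5 skins with more Krt1, 1 with the Y-linked covariate, 23 in the fit of 21 libraries and 107 with DESeq2, and to 0 to 1 with a mouse left out, with no mast cell gene called under any of them. Higher calls in liver went from 582 to 302 at 0.05, 296 with the Y-linked covariate and 156 in the fit of 21 libraries, and to 49 without KI 2 and 784 without WT 4. The mast cell genes called in liver went from 3 to 1 (Hdc) at 0.05, with the block and with the Y-linked covariate, to 0 in the fit of 21 libraries, and to 0 to 3 with a mouse left out. Without the filter 2 were called, and Ms4a2 was not (edgeR adjusted p = 0.107). Brain calls went from 0 to 604 with DESeq2, 2165 with the block, 614 in the fit of 21 libraries and 0 to 1698 with a mouse left out, the highest without WT 5. Calls for skin minus liver went from 18 to 119 with DESeq2 and 3 to 32 with a mouse left out, and for skin minus brain from 0 to 56 with DESeq2. The cause was not tested.

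Signs changed only for genes that were not called. In skin, Ms4a2 turned to 0.012 with the size factors and with the test of DESeq2, 0.028 without the filter and 0.024 in the fit of 21 libraries, Cma1 to -0.10 with the keratin covariate and -0.23 in the 5 skins, and Mcpt4 to -0.10 in those skins (log2 fold changes). With a mouse left out, skin values ran from -0.34 to 0.36 for Cma1, -0.40 to 0.26 for Cpa3, -0.19 to 0.50 for Mcpt4, -0.80 to 0.55 for Ms4a2 and -0.026 to 0.72 for Tpsb2. In brain they ran from -0.35 to 1.31 for Cma1, -0.29 to 0.68 for Cpa3 and -1.85 to 0.32 for Ms4a2, and Hdc turned to 0.088 with the Y-linked covariate. For skin minus brain they ran from -1.76 to 0.60 for Cma1, -1.16 to 0.47 for Cpa3, -4.14 to 1.18 for Fcer1a, -0.56 to 1.19 for Mcpt4, -1.18 to 2.33 for Ms4a2 and -0.96 to 0.54 for Tpsb2, and for skin minus liver from -1.87 to 2.18 for Fcer1a.

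KI and WT mice share only a number. Same-numbered KI and WT libraries correlated at 0.198 and 0.0349 in skin, -0.0268 and -0.0931 in liver and 0.0216 and -0.0952 in brain. With this number as a block, Cpa3 turned to -0.0059 and Hdc to 0.022 in brain, and in liver Cpa3 and Ms4a2 had adjusted p = 0.241 and 0.314 in edgeR.

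With 2 KI mice, an estimate in skin rests on 2 libraries that differ greatly in keratin. The 3 genes under the filter in liver and brain had too few counts for a statement on KI.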
